A study of Mus musculus with 6 samples.

Results

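B cells and plasma cells of white fat were followed through 7 genes, taken as the rows of the deposited expression table that carry their symbols. All 7 were found among the 21959 rows of the table. They are Cd79a, Cd79b, Ms4a1, Cr2 and Pax5, which mark B cells, and Jchain and Mzb1, which mark antibody-secreting cells. RNA was sequenced from mouse white adipose tissue, which the series text places in the gonadal depot, in 3 wild-type (WT) libraries (replicates 10, 11 and 12) and 3 libraries of the genotype labelled ++Oxtr (replicates 7, 8 and 9). The study asks how the oxytocin receptor bears on fat development and energy metabolism. The labels give neither the construct, promoter or cell type behind ++Oxtr nor the age, sex, diet or number of the mice, and the column headers call these libraries tg. Whether each replicate is its own animal is not stated, so p-values measure only the spread between these libraries, which may be technical.

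A B cell recognises antigen through a membrane antibody that cannot signal by itself, and CD79A and CD79B are the paired chains that carry its signal into the cell. When a B cell becomes a plasma cell it switches off Pax5, the factor that holds B cell identity, and turns its secretory apparatus to making antibody. In visceral fat, B cells sit in the stroma and in small lymphoid clusters, and the chemokine CXCL13 draws them there.

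RefSeq promoter windows (GRCm38.p6, 250 bases before to 50 bases after a gene's start) were given for 4 of the 7 genes. The windows of 3 of them are shown because they hold the same short element, the E box CAGGTG, a type of sequence that E proteins such as E2A bind. Capitals mark CAGGTG on either strand (CACCTG when read from the other strand) and, in Cd79a, the ETS-type element AGGAAGTG.
Cd79a, chr7:24897247-24897546, plus strand: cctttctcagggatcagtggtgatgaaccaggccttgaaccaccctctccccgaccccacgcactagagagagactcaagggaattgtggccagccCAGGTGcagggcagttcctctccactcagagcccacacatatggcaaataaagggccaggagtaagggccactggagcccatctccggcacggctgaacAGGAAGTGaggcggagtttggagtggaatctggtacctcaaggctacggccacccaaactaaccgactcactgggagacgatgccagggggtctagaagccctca
Cr2, chr1:195176670-195176969, minus strand: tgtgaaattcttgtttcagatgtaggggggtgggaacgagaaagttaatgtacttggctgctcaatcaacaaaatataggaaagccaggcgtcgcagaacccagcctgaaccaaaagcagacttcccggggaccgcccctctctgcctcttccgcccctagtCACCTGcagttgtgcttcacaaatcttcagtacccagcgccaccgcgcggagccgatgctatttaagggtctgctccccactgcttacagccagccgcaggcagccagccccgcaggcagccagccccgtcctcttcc
Jchain, chr5:88527848-88528147, minus strand: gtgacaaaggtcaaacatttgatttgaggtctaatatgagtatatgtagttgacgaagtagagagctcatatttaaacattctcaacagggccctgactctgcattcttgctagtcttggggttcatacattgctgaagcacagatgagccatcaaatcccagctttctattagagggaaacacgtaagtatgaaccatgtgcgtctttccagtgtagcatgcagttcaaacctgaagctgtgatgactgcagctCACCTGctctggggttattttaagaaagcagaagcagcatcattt
Positions are counted from 1 at the 5′ end of each window. The E box began at position 97 in Cd79a, 163 in Cr2 and 256 in Jchain, and AGGAAGTG began at position 196 in Cd79a. The window of Pax5 held neither. Of 32851 mouse promoter windows of this length, 20.2% held the E box and 4.07% held AGGAAGTG, on either strand. The octamer ATGCAAAT (1.74% of windows) and the EBF-type element CCCNNGGGA (6.56%) were searched on both strands and were in none of the 4 windows. Only exact strings were searched, so a near match to CCCNNGGGA, such as ctcaaggga in the Cd79a window, was not counted. The motifs were chosen after the sequences had been seen, and a match describes letters, not binding.

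Libraries held 14314517 to 19186696 counted reads, and a count of 0 allows up to 3 reads, which is 0.156 to 0.210 RPM (reads scaled to the library's total). Levels are also given as CPM, which scales reads to TMM-adjusted library size, and as the deposited FPKM, which also divides by gene length. Oxtr, the gene of the oxytocin receptor, was at 22.0 to 61.4 CPM in WT and 81.8 to 90.7 CPM in ++Oxtr, without overlap (edgeR adjusted p = 0.469). Adipoq, the adipocyte hormone adiponectin, was at 1634 FPKM or more in each library. Some libraries stood apart from the others in markers of other cells. The summed level of 10 epithelial markers was 75.7 FPKM in ++Oxtr replicate 8 and 11.8 to 31.3 FPKM in the other libraries. The summed level of 18 T cell markers was 38.0 FPKM in ++Oxtr replicate 9 and 9.38 to 15.2 FPKM in the others.

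The B cell and plasma cell genes did not separate the genotypes. None of the 5 members that passed the filter on low counts was past an adjusted p of 0.05 in edgeR's quasi-likelihood test, where 0% of 13566 genes were. At an unadjusted p under 0.05 edgeR gave 0 of the 5, against 8.91% of all genes. DESeq2 called 0 of the 5 at an adjusted p of 0.05, against 1.4% of all genes (0.693% higher and 0.708% lower in ++Oxtr), and limma-voom called 0 of the 5 and 0%. Unadjusted, both tools again had 0 of the 5 under 0.05, against 9.55% of all genes in DESeq2 and 10.5% in limma-voom. The values of WT and ++Oxtr overlapped in all 7 genes, whereas 15.1% of the genes tested had groups that did not overlap (7.45% higher and 7.61% lower in ++Oxtr). Cr2 and Mzb1 did not pass the filter. Cr2 is given with a fold change from a fit without a filter, and Mzb1 as counts and levels only. In whole tissue, fewer cells of a type and less RNA per cell cannot be told apart.

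**Figure D1:**
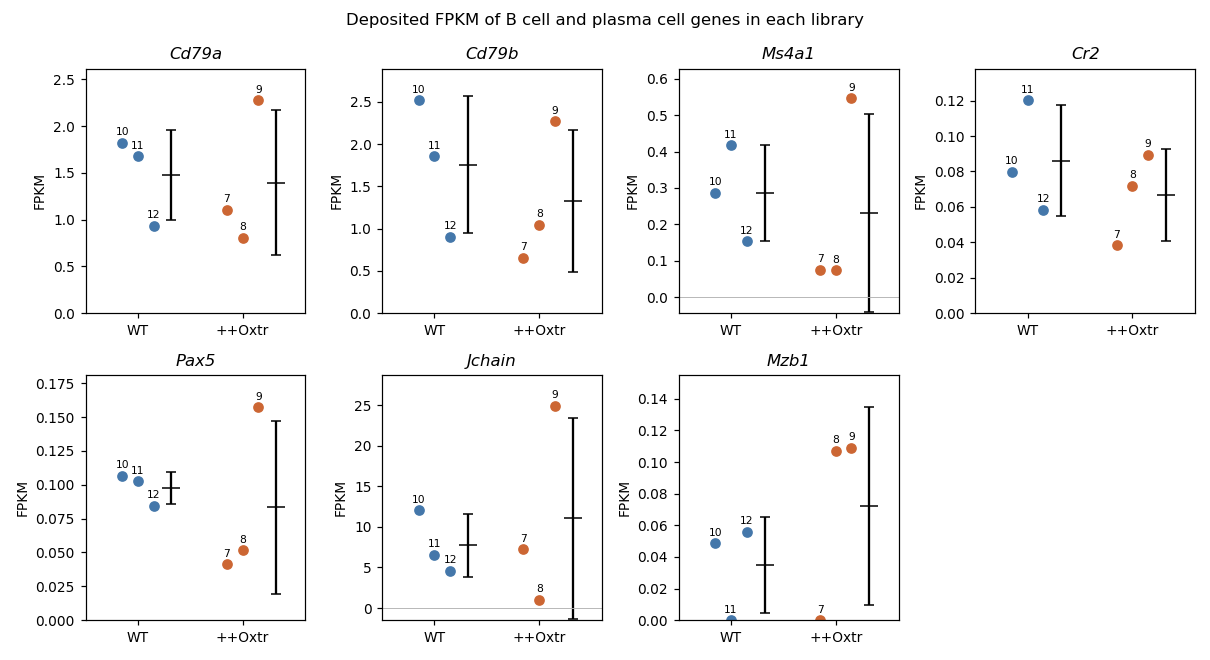
Deposited FPKM (reads scaled to gene length and library total, linear axis) of the 7 genes in 3 WT and 3 ++Oxtr libraries; points are libraries with their replicate numbers, and bars are the mean ± SD over 3 libraries. In Ms4a1, Pax5 and Jchain, ++Oxtr replicate 9 lies above the WT libraries while ++Oxtr replicate 8 lies below them.

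Cd79a (ENSMUSG00000003379, GRCm38 chromosome 7, 24897381 to 24902197, plus strand, protein coding) encodes a signalling chain of the B cell receptor. It had 45, 35 and 20 reads in WT replicates 10, 11 and 12, or 1.82, 1.68 and 0.933 FPKM. In ++Oxtr replicates 7, 8 and 9 it had 31, 18 and 50 reads, or 1.11, 0.805 and 2.27 FPKM. The lowest and the highest library thus both carried the ++Oxtr genotype. The mean was 1.48 ± 0.477 FPKM in WT and 1.40 ± 0.776 FPKM in ++Oxtr (SD, n = 3). ++Oxtr over WT, the log2 fold change was -0.05 (SE 0.50, edgeR adjusted p = 0.988), with a 95% interval from -1.21 to 1.12, and the exact 2-sided permutation p was 0.9, where 3 against 3 libraries allow 0.1 at the least.

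Cd79b (ENSMUSG00000040592, GRCm38 chromosome 11, 106311341 to 106314762, minus strand, protein coding) encodes the partner chain. It was at 2.51, 1.86 and 0.902 FPKM in WT replicates 10, 11 and 12. In ++Oxtr replicates 7, 8 and 9 it was at 0.656, 1.05 and 2.27 FPKM. In this gene WT replicate 10 was the highest library and ++Oxtr replicate 7 the lowest, with ++Oxtr replicate 9 among the WT values. Its log2 fold change was -0.38 (SE 0.58, edgeR adjusted p = 0.888), with a 95% interval from -1.73 to 0.97. Within libraries, the ratio of Cd79a to Cd79b ran from 0.725 to 1.69 in FPKM.

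Ms4a1 (ENSMUSG00000024673, GRCm38 chromosome 19, 11249675 to 11266241, minus strand, protein coding) encodes CD20, a surface protein of mature B cells that plasma cells lose. It had 30, 37 and 14 reads in WT replicates 10, 11 and 12 (0.286, 0.418 and 0.154 FPKM). It had 9, 7 and 51 reads in ++Oxtr replicates 7, 8 and 9 (0.0758, 0.0737 and 0.546 FPKM). Both ++Oxtr replicates 7 and 8 lay below every WT library and ++Oxtr replicate 9 above every one. Within ++Oxtr the highest library was 7.47 times the lowest in CPM, while the median of 1056 genes within 1.5-fold of its level was 2.09 times. The exact binomial 95% interval was 0.183 to 0.940 RPM in ++Oxtr replicate 8 and 2.52 to 4.44 in ++Oxtr replicate 9, so counting error alone left these intervals apart. In edgeR the log2 fold change was -0.27 (SE 0.85, edgeR adjusted p = 0.954), with a 95% interval from -2.26 to 1.72. Without ++Oxtr replicate 9 it was -1.88 (SE 0.61, edgeR adjusted p = 0.456).

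Cr2 (ENSMUSG00000026616, GRCm38 chromosome 1, 195136811 to 195176716, minus strand, protein coding) encodes CD21, a complement receptor that lowers the threshold of B cell activation and is also carried by follicular dendritic cells. WT replicates 10, 11 and 12 had 11, 14 and 7 reads of it, against 6, 9 and 11 for ++Oxtr replicates 7, 8 and 9. At 0.0384 to 0.120 FPKM it was near the limit of detection in all 6 libraries. The spread of its reads was 1.44 times the counting variance in WT and 1.47 times in ++Oxtr, which is close to counting error alone. Fitted over unfiltered genes, Cr2 had a log2 fold change of -0.34 (SE 0.65, edgeR adjusted p = 0.908), with a 95% interval from -1.82 to 1.14.

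Pax5 (ENSMUSG00000014030, GRCm38 chromosome 4, 44524757 to 44710487, minus strand, protein coding) encodes the transcription factor of B cell identity. It had 16, 13 and 11 reads in WT replicates 10, 11 and 12 (0.107, 0.103 and 0.0844 FPKM). It had 7, 7 and 21 reads in ++Oxtr replicates 7, 8 and 9 (0.0412, 0.0515 and 0.157 FPKM). The order was that of Ms4a1, with ++Oxtr replicates 7 and 8 below the WT values and ++Oxtr replicate 9 above them. Counting error could not separate them, however. The exact binomial 95% intervals were 0.147 to 0.752, 0.183 to 0.940 and 0.862 to 2.13 RPM in ++Oxtr replicates 7, 8 and 9. Each overlapped that of WT replicate 12, 0.373 to 1.34 RPM. For Pax5 the log2 fold change over the 6 libraries was -0.20 (SE 0.60, edgeR adjusted p = 0.950), with a 95% interval from -1.61 to 1.21. Antisense and unclassified transcripts of GENCODE M21 share 8.60% of the exonic bases of Pax5, and reads of the strands cannot be told apart here.

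Jchain (ENSMUSG00000067149, GRCm38 chromosome 5, 88519809 to 88527891, minus strand, protein coding) encodes the joining chain that links antibodies into IgM pentamers and IgA dimers. It had the most reads of the 7 genes, with 513, 235 and 169 in WT replicates 10, 11 and 12 (12.02, 6.52 and 4.56 FPKM). In ++Oxtr replicates 7, 8 and 9 it had 350, 38 and 946 reads (7.25, 0.984 and 24.9 FPKM). The ++Oxtr libraries thus held the lowest value, the highest value and one among the WT values. The highest ++Oxtr library was 25.5 times the lowest in CPM, against a median of 1.23 times over 2893 genes within 1.5-fold of its level. Exact binomial 95% intervals were 1.75 to 3.40 RPM in ++Oxtr replicate 8 and 58.8 to 66.8 in ++Oxtr replicate 9. The WT libraries spread 2.73-fold, against a median of 1.21-fold for the same genes.

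The mean of Jchain was 7.70 ± 3.87 FPKM in WT and 11.05 ± 12.4 FPKM in ++Oxtr (SD, n = 3), so the SD in ++Oxtr was larger than the mean. Between genotypes the log2 fold change was 0.55 (SE 0.96, edgeR adjusted p = 0.908), with a 95% interval from -1.76 to 2.87 (exact permutation p = 0.9). Its sign was not stable. Without ++Oxtr replicate 9 the log2 fold change was -0.85 (SE 0.89, edgeR adjusted p = 0.811), and with all 6 libraries it was -0.33 in limma-voom and -0.20 and -0.30 in limma on log2 FPKM with pseudocounts of 0.5 and 0.1.

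Mzb1 (ENSMUSG00000024353, GRCm38 chromosome 18, 35647267 to 35649367, minus strand, protein coding) encodes a helper of antibody assembly in the endoplasmic reticulum of plasma, marginal zone and B-1 cells. It had 6 reads in all: WT replicates 10, 11 and 12 had 1, 0 and 1, against 0, 2 and 2 for ++Oxtr replicates 7, 8 and 9. Every library was below the 3 reads that a count of 0 allows, so no fold change is given. A second gene on the same strand, SPATA24 (ENSMUSG00000117874), covers 57.2% of the exonic bases of Mzb1 in GENCODE M21 and had 0 reads in all libraries. How reads shared by overlapping genes were counted is not given in the sources used here, so the level of Mzb1 is uncertain.

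**Figure D2:**
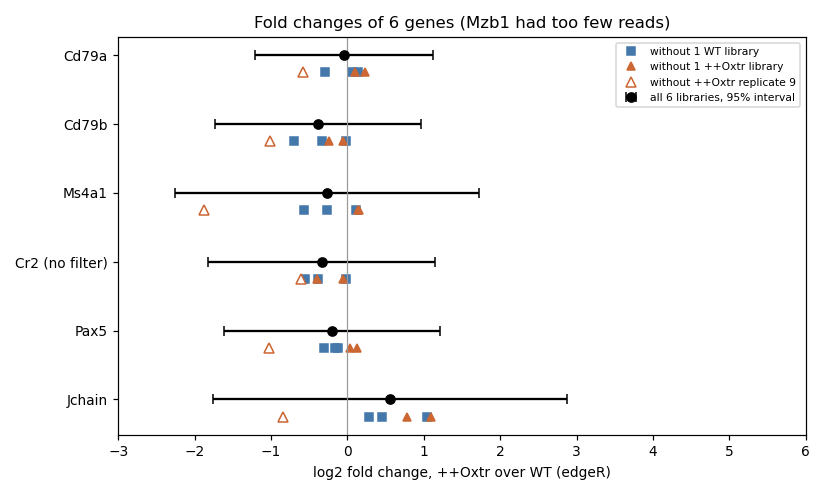
Log2 fold change of ++Oxtr over WT for 6 genes (horizontal axis): black points with bars are edgeR estimates from all 6 libraries with 95% intervals, and smaller symbols are estimates with 1 WT library (squares), 1 ++Oxtr library (filled triangles) or ++Oxtr replicate 9 (open triangles) left out. Every interval includes 0, and the open triangles lie farthest to the left in each gene.

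Per length, the order of mean levels over the 6 libraries was Jchain (9.38 ± 8.42 FPKM), Cd79b (1.54 ± 0.776), Cd79a (1.44 ± 0.578), Ms4a1 (0.259 ± 0.194), Pax5 (0.0906 ± 0.0421), Cr2 (0.0763 ± 0.0278) and Mzb1 (0.0535 ± 0.0484; SD, n = 6). Jchain was above Cd79b in 5 of 6 libraries, ++Oxtr replicate 8 being the exception. The order of Cd79b and Cd79a was not stable, with 3 libraries each way. Cd79a was above Ms4a1, and Ms4a1 above Pax5, in 6 of 6 libraries. Pax5 was above Cr2 in 4 of 6 and Cr2 above Mzb1 in 4 of 6, so these neighbours did not differ beyond their spread.

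The label plasma cell was checked against other markers. Jchain was detected at 38 reads or more in each library. Mzb1 was not detected above its limit, but its overlap with SPATA24 leaves that count uncertain. Tnfrsf17, the plasma cell receptor BCMA, had 3 to 7 reads per library and did not pass the filter. Its lowest value, 3 reads or 0.244 FPKM, was in ++Oxtr replicate 9. Prdm1, which encodes BLIMP-1, the factor that drives plasma cell formation, was at 0.508 to 0.864 FPKM. Derl3, a gene of endoplasmic reticulum quality control that is high in plasma cells, was at 0.175 to 0.941 FPKM. In ++Oxtr replicate 9, the library with the most Jchain, it was at 0.732 FPKM. Of the 17 listed genes of plasma cells and antibody secretion, 8 were highest in ++Oxtr replicate 9 in CPM. The share of all genes highest in that library was not counted. In FPKM, Sdc1 and Hsp90b1 of these 8 were instead highest in WT replicates 12 and 10. Among these 8, Pou2af1 was at 1.20 FPKM there and 0.281 to 0.773 FPKM in the others. Slamf7 was at 1.32 FPKM there and 0.569 to 1.22 FPKM in the others. Tnfrsf17, Prdm1 and Derl3 were not among the 8. The genes that make up antibodies themselves were not analysed here: the 13 immunoglobulin constant genes of GENCODE M21 had 0 rows in the table. The surrogate light chain genes of B cell precursors, Igll1, Vpreb1, Vpreb2 and Vpreb3, did not pass the filter. The recombinase genes Rag1 and Rag2 of developing lymphocytes had at most 3 reads in any library.

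The ratio of Jchain to Cd79a does not depend on library size. In FPKM it was 6.60, 3.89 and 4.89 for WT replicates 10, 11 and 12, against 6.54, 1.22 and 10.95 in ++Oxtr replicates 7, 8 and 9. The WT libraries lay inside the ++Oxtr range. Within ++Oxtr the highest library was 25.5 times the lowest for Jchain and 2.85 times for Cd79a, in CPM. The summed level of the 5 B cell genes was 4.81, 4.17 and 2.13 FPKM in WT and 1.92, 2.05 and 5.34 FPKM in ++Oxtr. It was 3.71 ± 1.40 FPKM in WT and 3.10 ± 1.94 FPKM in ++Oxtr (SD, n = 3), and the groups overlapped.

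Other genes of the B lineage were taken from lists of surface proteins, receptor signalling, transcription factors and plasma cell secretion. Of 60 entries tested, 0 passed an adjusted p of 0.05 in either direction, 23 were on the higher side and 37 on the lower side, and 49.2% of all genes tested were on the lower side. The groups did not overlap in 11 of the 60, against 15.1% of all genes. Without adjustment, 1 entry was higher and 8 were lower at an edgeR p under 0.05, against 4.44% and 4.47% of all genes.

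Among 14 tested surface and co-receptor genes the median log2 fold change was -0.14, beside 0.00398 over all genes tested. Cd72, an inhibitory co-receptor, was at 0.377 to 0.551 FPKM in WT and 0.717 to 1.24 FPKM in ++Oxtr, without overlap. Its log2 fold change was 1.08 (SE 0.37, edgeR adjusted p = 0.469). Cd37, a tetraspanin of leukocytes, had no overlap either, at 4.66 to 6.77 FPKM in WT and 3.33 to 4.31 FPKM in ++Oxtr (log2 fold change -0.49, SE 0.17, edgeR adjusted p = 0.481). The most abundant genes of this list, Cd24a and Cd38, are not specific to B cells. Their log2 fold changes were 0.56 (SE 0.49) for Cd24a and 0.35 (SE 0.26) for Cd38.

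Of 18 genes of B cell receptor signalling, 14 lay below WT and the median log2 fold change was -0.17, and 0 passed an adjusted p of 0.05. The groups did not overlap in 4 of the 18, Bank1, Btk, Plcg2 and Inpp5d, each of them lower in ++Oxtr. Over all genes tested, 15.1% did not overlap, and 7.61% did not overlap and were lower in ++Oxtr. Without adjustment, 4 of the 18 were lower at an edgeR p under 0.05, against 4.47% of all genes. Bank1, an adaptor of receptor signalling, was at 1.32, 1.33 and 1.61 FPKM in WT and 0.842, 0.635 and 1.04 FPKM in ++Oxtr (log2 fold change -0.71, SE 0.21, edgeR adjusted p = 0.418). Btk, the tyrosine kinase that acts behind the receptor, was at 2.53 to 3.58 FPKM in WT and 1.70 to 2.25 FPKM in ++Oxtr. Inpp5d, the lipid phosphatase SHIP1, which restrains this signal, was at 4.59 to 6.60 FPKM in WT and 3.08 to 4.46 FPKM in ++Oxtr. Blk, a kinase much more restricted to B cells, was at 0.328, 0.414 and 0.176 FPKM in WT and 0.155, 0.121 and 0.467 FPKM in ++Oxtr, and its groups overlapped. Btk, Plcg2 and Inpp5d are also used by macrophages. Of 11 macrophage markers, 11 lay below WT (median log2 fold change -0.44), with a summed level of 909.96 to 1145 FPKM in WT and 722.3 to 882.3 FPKM in ++Oxtr, and none at 0 in all libraries. Their part in the values of the signalling genes was not tested.

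Among 12 tested transcription factors of the B lineage the median log2 fold change was -0.16. Ebf1, which acts before Pax5 in B cell development but is also high in adipocytes and their precursors, was at 13.2 to 21.6 FPKM in all libraries, with a log2 fold change of -0.17 (SE 0.17, edgeR adjusted p = 0.814). Spi1, which encodes PU.1 and serves macrophages as well as B cells, was at 7.02 to 8.80 FPKM in WT and 5.78 to 6.01 FPKM in ++Oxtr (log2 fold change -0.34, SE 0.12, edgeR adjusted p = 0.483). Foxo1, which is also a factor of adipocytes, had a log2 fold change of -0.47 (SE 0.18, edgeR adjusted p = 0.513).

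Of 16 tested genes of plasma cells and antibody secretion, 11 lay above WT and the median log2 fold change was 0.10, while 0 passed an adjusted p of 0.05. Xbp1, which expands the secretory apparatus, was at 75.6 to 87.2 FPKM in all libraries, and the chaperone gene Hsp90b1 at 54.9 to 77.4 FPKM, neither of them specific to plasma cells. Ell2, an elongation factor that aids antibody secretion, was at 9.39 to 9.84 FPKM in WT and 5.55 to 7.93 FPKM in ++Oxtr (log2 fold change -0.40, SE 0.14, edgeR adjusted p = 0.469).

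Irf4, a transcription factor of plasma cells that adipocytes, macrophages and T cells also use, stood out in a single library. It had 1761, 325 and 658 reads in WT replicates 10, 11 and 12 (21.2, 4.63 and 9.12 FPKM). It had 852, 324 and 23892 reads in ++Oxtr replicates 7, 8 and 9 (9.06, 4.31 and 322.99 FPKM). Only ++Oxtr replicate 9 lay above the WT range, and the log2 fold change of 3.30 (SE 1.65, edgeR adjusted p = 0.617) rested on it. Jchain was also highest in this library, and the ratio of Irf4 to Jchain in FPKM was 12.97 there and 0.710 to 4.38 in the others.

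**Figure D3:**
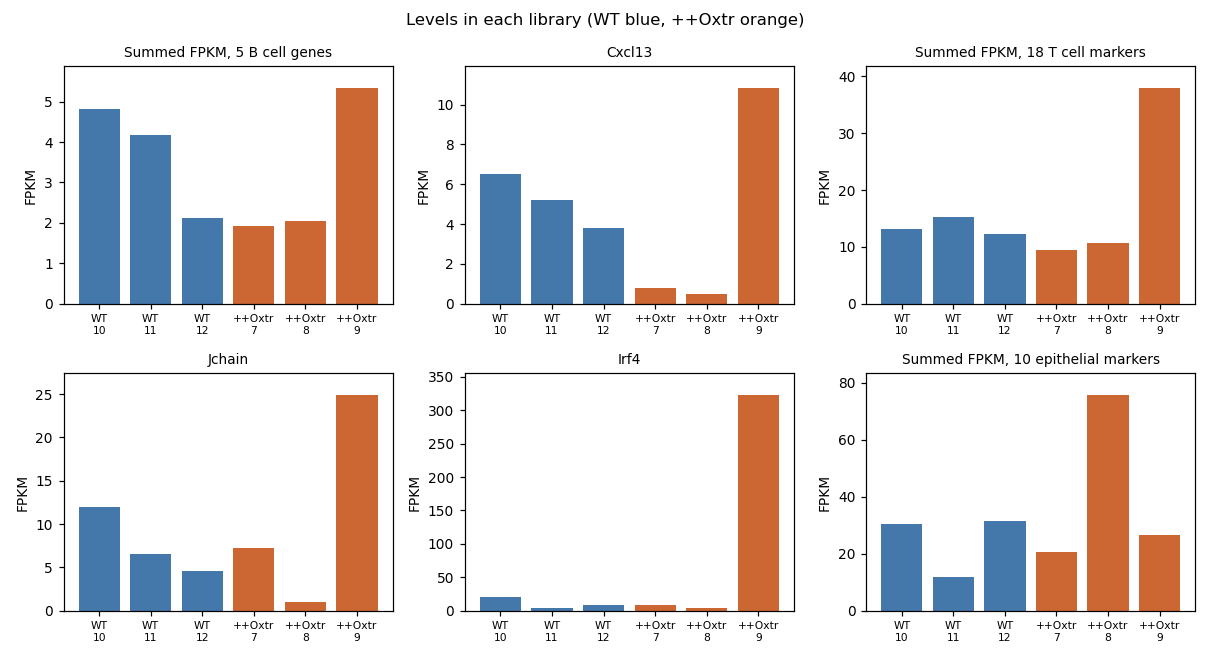
FPKM in each library (linear axes from 0; WT blue, ++Oxtr orange; 1 bar per library, so no error bars) of the 5 B cell genes summed, Cxcl13, 18 T cell markers summed, Jchain, Irf4 and 10 epithelial markers summed. In 5 of the 6 panels ++Oxtr replicate 9 is the highest library, and in the epithelial panel ++Oxtr replicate 8 is.

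Signals that keep and attract B cells were measured alongside. Of 9 tested genes, none was past the adjusted threshold of 0.05, and -0.038 was the median log2 fold change. Cxcl13, the chemokine of B cell follicles and fat lymphoid clusters, was at 6.52, 5.22 and 3.78 FPKM in WT replicates 10, 11 and 12. In ++Oxtr replicates 7, 8 and 9 it was at 0.816, 0.510 and 10.8 FPKM. As in Ms4a1 and Pax5, ++Oxtr replicates 7 and 8 were below every WT library and ++Oxtr replicate 9 above every one. For Cxcl13 the log2 fold change was -0.32 (SE 1.06, edgeR adjusted p = 0.955). Tnfsf13b, which encodes the survival factor BAFF, was level at 0.731 to 0.970 FPKM, with a log2 fold change of -0.02 (SE 0.20). Tnfsf13, which encodes APRIL, a survival factor of plasma cells, was at 0.973, 0.982 and 1.87 FPKM in WT and 0.382, 0.478 and 0.445 FPKM in ++Oxtr. Its groups did not overlap, and the log2 fold change was -1.49 (SE 0.42, edgeR adjusted p = 0.400).

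Markers of lymph node stroma and vessels had a median log2 fold change of -0.053 over 9 tested genes. Ccl19, a chemokine of T cell zones, had WT reads of 3, 4 and 6 against 13, 3 and 47 in the ++Oxtr libraries, and it did not pass the filter. Glycam1, a gene of high endothelial venules in lymph nodes, had 0 reads in all 6 libraries. Chst4, an enzyme of the same venules, was at 2.54 to 5.77 FPKM in WT and 0.999 to 2.40 FPKM in ++Oxtr (log2 fold change -1.09, SE 0.41, edgeR adjusted p = 0.502). Madcam1, also of this list, went the other way, at 0.146 to 0.411 FPKM in WT and 0.499 to 0.690 FPKM in ++Oxtr. Its log2 fold change was 1.03 (SE 0.53, edgeR adjusted p = 0.617). These were the 2 of the 9 without overlap, against 15.1% of all genes.

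Markers of T cells followed a related order over the libraries. Of 21 listed markers 18 were in the table, all 18 passed the filter and none was at 0 in all libraries. Their summed level was 12.2 to 15.2 FPKM in WT and 9.38 to 38.0 FPKM in ++Oxtr, and 17 of 18 were highest in ++Oxtr replicate 9, Tcf7 being the exception. Cd3e, a chain of the T cell receptor complex, was at 0.405, 0.702 and 0.09995 FPKM in WT and 0.192, 0.192 and 1.04 FPKM in ++Oxtr replicates 7, 8 and 9. None of the 18 passed an adjusted p of 0.05. The median over them was 0.65 (log2 fold change), and -0.56 without ++Oxtr replicate 9. The same library was the highest in 9 of 10 MHC class II genes, which B cells, dendritic cells and macrophages share. Whether these cells have a part in the values of the 7 genes was not tested. The share of all genes highest in ++Oxtr replicate 9 was not counted, so the counts of 17 and 9 genes stand without a background.

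Among B-1 cell markers, a list of 6 genes, the median log2 fold change was 0.31. Cd5, which B-1a cells share with T cells, was at 0.168, 0.425 and 0.193 FPKM in WT and 0.328, 0.132 and 0.915 FPKM in ++Oxtr (log2 fold change 0.85, SE 0.73, edgeR adjusted p = 0.766). Of 7 tested genes that bind or carry antibody, 0 passed an adjusted p of 0.05 in edgeR and 0 an unadjusted p of 0.05, with a median log2 fold change of -0.10. Fcgrt, the neonatal Fc receptor, was at 130.1 to 156.7 FPKM in all libraries. Fcgr4, a receptor for IgG on myeloid cells, was at 3.99, 1.78 and 3.25 FPKM in WT and 2.78, 2.70 and 8.55 FPKM in ++Oxtr replicates 7, 8 and 9, so ++Oxtr replicate 9 was highest here as well (log2 fold change 0.67, SE 0.53, edgeR adjusted p = 0.739). Pigr, which carries antibody bound to the J chain across epithelia, was at 0.0129 to 0.0347 FPKM in WT and ++Oxtr replicate 7 and at 0.324 and 0.313 FPKM in ++Oxtr replicates 8 and 9, and it did not pass the filter.

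Likeness to the 7 genes was measured as Pearson's r over the 6 libraries between log2 (CPM + 0.5) of a gene and the mean standardized log2 level of the 5 B cell genes, for 13124 genes with a mean of at least 1 CPM. Among the 8 genes most like them were Gpbp1l1, Casp12, Ccl22, Ice2, Ppig and Top2a, with r from 0.995 to 0.969. These values describe the same 6 libraries, whose depth and makeup all genes share. Ccl22, a chemokine of dendritic cells and macrophages, was at 0.660, 0.781 and 0.555 FPKM in WT and 0.404, 0.448 and 0.827 FPKM in ++Oxtr. The 8 genes most like Jchain and Mzb1 together were Ubr2, Rpl27, Zfp422, Ccs, Lonrf1, Stk35, Maz and Phf11d (r from 0.989 to 0.983), a ranking in which the 6 reads of Mzb1 weigh as much as all reads of Jchain.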

How the data were processed

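Libraries were prepared from Trizol-extracted total RNA using the NEBNext Ultra II RNA reagents, according to the protocols in the labels. As build, mm10 stands in the submitters' processing notes. The aligner, counting program, annotation release and strand setting: not given in the sources used here. Raw read counts and FPKM values per library are the authors' deposited columns. Recomputing count over gene length and column sum gave back the FPKM within a relative error of 5.1e-15. Start and end of 514 rows, out of 21851 identifiers found in GENCODE M21, matched GRCm38, so the table's positions conflict with mm10, and positions printed here are those of GENCODE M21.

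Genes were tested with edgeR 4.0.16 (quasi-likelihood, robust, TMM factors, filterByExpr) in R 4.3.3 on 13566 genes, with Benjamini-Hochberg adjustment over all of them at a threshold of 0.05. Log2 fold changes of Cr2 come from the fit without a filter. CPM values are scaled with TMM factors. Single genes had an exact permutation test over 20 assignments. Intervals of counts are exact binomial (Clopper-Pearson) at 95% and, like floors, cover counting error only. DESeq2 1.42.0 and limma 3.58.1 were alternatives. In simulated counts for this comparison (13566 genes, 200 of them changed), edgeR recovered 69% of 2-fold and 87% of 4-fold changes. It made 14 calls among the unchanged genes. The changed genes were drawn at random above a read minimum, so these shares do not describe the members. Log2 fold changes of the 5 tested members had SEs from 0.50 (Cd79a) to 0.96 (Jchain).

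The members and lists were chosen with earlier results of these data known. Named from each list were the first gene, the 2 with the smallest p and the 2 with the highest FPKM. Others were named after their values were seen: Btk, Plcg2, Tnfrsf17, Derl3, Pou2af1, Slamf7, Rag1, Rag2, Vpreb2, Glycam1, Madcam1 and Cxcl13. Mzb1 has no fold change because no library exceeded 3 reads. Some genes that the rule names are not reported here.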

Additional observations from a re-analysis of the deposited data

How the results depend on the processing

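No paired analysis was possible because WT and ++Oxtr have different replicate numbers. In edgeR, 0 genes were called in either direction at an adjusted p of 0.05, and without adjustment 603 were higher and 606 lower. DESeq2 gave 94 higher and 96 lower, and limma-voom, limma on FPKM, the other normalizations and filters, and each library left out gave 0. In simulated counts without any change, DESeq2 made 24 calls, edgeR 0 and limma-voom 2. None of the 6 genes passed under any alternative run. Jchain turned to -0.33 with limma-voom, -0.20 with limma on log2 (FPKM + 0.5) and -0.30 with a pseudocount of 0.1. With 1 library left out, the log2 fold change ran from -0.58 to 0.23 for Cd79a, -1.02 to -0.02 for Cd79b, -1.88 to 0.15 for Ms4a1, -0.61 to -0.02 for Cr2, -1.03 to 0.13 for Pax5 and -0.85 to 1.09 for Jchain. In each of the 6 genes the lowest value came without ++Oxtr replicate 9. Cr2 and Pax5 had too few reads for some alternatives, and fold changes of Mzb1, at 0 to 2 reads per library, are not given. The cause of these shifts was not tested.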

Other observations

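Neutrophil markers were also high in ++Oxtr replicate 9, where 7 of 10 had their highest value, a count without a share over all genes beside it. S100a9, one of these markers, was at 3.84, 3.88 and 13.2 FPKM in WT and 23.7, 11.98 and 39.5 FPKM in ++Oxtr replicates 7, 8 and 9 (log2 fold change 1.91, SE 0.63, edgeR adjusted p = 0.469). Natural killer cell markers summed to 8.12 to 11.1 FPKM in WT and 6.59 to 14.6 FPKM in ++Oxtr, with a median log2 fold change of 0.14. Dendritic cell markers summed to 62.2 to 83.7 FPKM in WT and 66.8 to 97.4 FPKM in ++Oxtr, with a median of 0.075. Erythrocyte markers, a sign of blood in the tissue, summed to 830.6 to 1794 FPKM in WT and 1224 to 1251 FPKM in ++Oxtr, so WT replicate 12 rather than ++Oxtr replicate 9 was highest there. Mesothelial markers had a median of -0.11 and adipocyte markers of -0.0045. Multiciliated epithelium markers had a median of 2.34, and of 0.72 without ++Oxtr replicate 8. Their summed levels overlapped between the groups (41.7 to 60.2 FPKM in WT, 40.9 to 74.3 FPKM in ++Oxtr). Tppp3 alone was at 35.3 to 58.9 FPKM, so these sums mostly reflect that gene. Foxj1, the regulator of motile cilia, was counted 443 times in ++Oxtr replicate 8, against 2 and 97 for ++Oxtr replicates 7 and 9 and 0, 2 and 90 for the WT libraries.

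When Jchain alone served as the reference, a choice made after its values were seen, the genes most like it over the 6 libraries included Noct, Cnot3, Praf2, Rbm15, Chrm3, Prpf38b and Plcl2, with Pearson's r from 0.991 to 0.979. Praf2 was at 2.16, 1.83 and 1.88 FPKM in WT and 1.83, 0.827 and 2.87 FPKM in ++Oxtr. None of these is a gene of the B lineage lists.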
